A study of Mus musculus with 2 samples.

Results

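The mouse genome has 5 genes for the receptors of the colony-stimulating factors: Csf1r, Csf2ra, Csf2rb, Csf2rb2 and Csf3r. All 5 were found by symbol among the 55536 annotated genes of the deposited gene tables, and their 30 annotated transcripts among the 141862 of the transcript tables. The study sequenced ribosomal-RNA-depleted total RNA from the nucleoplasmic fraction of C57BL/6J bone-marrow-derived macrophages (BMDM), primary cells grown out of mouse bone marrow. Lipid A, the endotoxin part of bacterial lipopolysaccharide, was given at 100 ng/ml for 12 hours and then washed out for 12 hours, and the time of renewed exposure was 0 minutes. There is 1 such group of 2 biological replicates, each with its own biosample under a shared donor entry, so no comparison between conditions was possible and no test was made. Sex and age were not collected, and it is not given whether the replicates came from separate mice or separate cultures. Library preparation started from 1 µg of RNA in replicate 1 and 500 ng in replicate 2, so starting amount and replicate cannot be told apart. The growth of these cells, and any colony-stimulating factor in their medium, is not given in the sources used here.

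CSF1R is a receptor tyrosine kinase that binds CSF1 (M-CSF) and IL-34, and macrophages depend on it for survival and proliferation. The receptor for GM-CSF pairs a ligand-binding alpha chain, CSF2RA, with the common beta chain CSF2RB, which also serves the IL-3 and IL-5 receptors and signals through JAK2 and STAT5. Mice carry a duplicate of the beta chain, Csf2rb2, whose product serves the IL-3 receptor. CSF3R, the G-CSF receptor, is known for its role in the production and release of neutrophils.

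All 5 receptor genes were present at 10 TPM or more in both libraries, a level reached by 19.7% of the 22028 protein-coding genes, and 44.4% of these reached 1 TPM. In the second quantification described below all 5 were again above 1 TPM in both libraries, against 45.3% of protein-coding genes. TPM is a level per unit of transcript length, scaled to the same total in each library. In the gene tables the receptors together held 489 and 472 TPM in replicates 1 and 2, of which Csf1r took 52.4% and 54.0%. The median protein-coding gene had 0.420 and 0.445 TPM. Expected counts summed to 22907877 reads in replicate 1 and 18612405 in replicate 2. All 10 macrophage markers examined were at 10 TPM or more in both libraries, with Lyz2 at 1368 and 1126 TPM and Adgre1, which encodes F4/80, at 604 and 527 TPM. Lists for dendritic cells, osteoclasts, mast cells and basophils, B cells, T and NK cells and eosinophils summed to at most 9.04 and 4.33 TPM each, led by Batf3 and Acp5. The second quantification listed the T cell gene Cd3d, at 0 and 4 counts in the gene tables, at 1.76 and 4.2 TPM. In bulk RNA, fewer cells of a type and less RNA per cell cannot be told apart.

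The beta-chain pair is so alike in sequence that it is shown before the values, because the reads of these 2 genes had to be divided between near copies. Csf2rb (ENSMUSG00000071713.6, mm10 chr15:78325752-78353847, plus strand) and Csf2rb2 (ENSMUSG00000071714.7, chr15:78282507-78305721, minus strand) lie 20030 bases apart on opposite strands. Their coding sequences, 2688 bases in Csf2rb (transcript ENSMUST00000096355.3) and 2634 bases in Csf2rb2 (transcript ENSMUST00000096356.4), were identical at 95.2% of the aligned bases outside gaps. The longest identical coding stretch ran for 242 bases in the last exon, exon 14 of each transcript, at chr15:78348577-78348818 in Csf2rb and chr15:78284630-78284871 in Csf2rb2. It is printed here once, read 5′ to 3′ along the coding strand, with capitals marking the 62 bases annotated as a microRNA hairpin in both genes.
Csf2rb and Csf2rb2: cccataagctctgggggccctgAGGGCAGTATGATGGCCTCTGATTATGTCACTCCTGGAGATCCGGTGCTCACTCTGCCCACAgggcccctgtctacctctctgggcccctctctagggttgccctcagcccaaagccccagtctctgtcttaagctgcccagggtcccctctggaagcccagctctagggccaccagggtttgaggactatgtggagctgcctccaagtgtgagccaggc
A read that lies wholly within this stretch matches both genes equally. The 60-base coding stretch with the most differences, 13, lay at chr15:78338893-78338952 in Csf2rb and chr15:78294379-78294438 in Csf2rb2, and shows the kind of sequence on which an assignment can rest; capitals mark the bases that differ.
Csf2rb: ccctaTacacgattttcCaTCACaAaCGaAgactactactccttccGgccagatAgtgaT
Csf2rb2: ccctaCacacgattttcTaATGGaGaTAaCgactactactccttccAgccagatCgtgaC
Over the whole transcripts, untranslated ends included, 18.9% of the 50-base words of the Csf2rb transcript also occurred in that of Csf2rb2, and 7.16% of its 100-base words did.

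The hairpin in capitals is annotated as Mir7676-2 (chr15:78348599-78348660) within Csf2rb and as Mir7676-1 (chr15:78284788-78284849) within Csf2rb2, both within the coding sequence. RefSeq (GRCm38.p6) gives both loci the same mature sequences, shown with the seed, bases 2 to 8, in capitals.
mmu-miR-7676-5p: aGGGCAGUaugauggccucugau
mmu-miR-7676-3p: uCCGGUGCucacucugcccaca
Neither hairpin gene received a read in either library, in either quantification, and the host genes held at least 3841 reads in each library. The hairpin entries are only 62 bases long and lie wholly within the coding sequence of their hosts, so their lack of reads says little. A total RNA library of this size range, labelled 250 to 400, does not measure mature microRNAs.

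Csf1r (ENSMUSG00000024621.16, mm10 chr18:61100598-61132149, plus strand) had the highest level of the 5 receptors. Its values were 256.5 TPM in replicate 1 and 255.0 TPM in replicate 2, with a mean of 256 ± 1.05 TPM (SD, n = 2), from 21568 and 13150 expected counts. Csf1r ranked 102 of 22028 protein-coding genes in replicate 1 and 78 in replicate 2. The protein-coding genes with the most similar levels were Ms4a7, at 257 and 250 TPM, and Ifi203, at 250 and 259 TPM. The deposited 95% credibility interval of the Csf1r level, which covers the division of reads and not the spread between samples, ran from 235 to 263 TPM in replicate 1 and from 230 to 259 TPM in replicate 2.

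Csf2ra, the GM-CSF receptor alpha chain (ENSMUSG00000059326.7, chr19:61223957-61228429, minus strand), stood at 61.95 TPM in replicate 1 and at 66.15 TPM in replicate 2, from 2168 and 2040 expected counts. Its mean of 64.0 ± 2.97 TPM (SD, n = 2) placed it at the 97.1 and 97.6 percentiles of protein-coding genes. Nfe2l2, which encodes the stress-response factor NRF2, was closest in level at 62.4 and 65.6 TPM, followed by Morf4l2 at 63.1 and 66.9 TPM.

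Csf2rb, the common beta chain, stood at 46.89 TPM in replicate 1 and at 49.71 TPM in replicate 2, from 4944 and 4145 expected counts. Csf2rb2, the duplicate beta chain, stood at 37.33 TPM in replicate 1 and at 35.06 TPM in replicate 2, from 4849 and 3841 expected counts. The means were 48.3 ± 1.99 TPM for Csf2rb and 36.2 ± 1.61 TPM for Csf2rb2 (SD, n = 2 each), and the values of the pair did not overlap. The deposited posterior SD of the count was the same for both, 7.27 reads in replicate 1 and 6.43 reads in replicate 2, against 3.67 and 3.45 reads for Csf1r and 0 for Csf2ra and Csf3r. Eif4h and Pnn were closest in level to Csf2rb, and Dync1i2 and Clic4 to Csf2rb2.

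Csf3r, the G-CSF receptor (ENSMUSG00000028859.14, chr4:126024550-126044440, plus strand), stood at 86.72 TPM in replicate 1 and at 66.56 TPM in replicate 2, from 5906 and 3597 expected counts. Its mean of 76.6 ± 14.3 TPM (SD, n = 2) had the widest spread of the 5 in the gene tables. The closest genes in level were Aim2, which encodes a cytosolic DNA sensor, at 86.0 and 65.7 TPM, and Parp11, at 86.0 and 65.4 TPM. None of the 10 neutrophil markers examined reached 1 TPM in both libraries, and the list summed to 1.82 and 2.33 TPM. Among them Ly6g, Cxcr2 and Camp had no count, and S100a8 had 4 and 2 counts. The second quantification listed Cxcr2 at 0.863 and 1.87 TPM.

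By mean TPM the order was Csf1r, Csf3r, Csf2ra, Csf2rb, Csf2rb2. A neighbour in this order was taken to be apart under 2 conditions. The mean log2 difference had to exceed the larger of the SDs of that pair, and both libraries had to give the same order. Csf1r was above Csf3r by 1.75 on the log2 scale of TPM plus 0.1, with a larger SD of 0.27. Csf3r and Csf2ra were not apart, with a difference of 0.25 against an SD of 0.27, and in replicate 2 they differed by 0.01. Csf2ra was above Csf2rb by 0.41, and Csf2rb above Csf2rb2 by 0.42, each beyond the SDs of the pair. By complete coding transcripts alone, described below, Csf2ra was apart from neither beta chain. On that scale Csf2ra minus Csf2rb was -0.16 in replicate 1 and 0.28 in replicate 2. The mean level there was 33.3 TPM for Csf2ra and 36.0 TPM for Csf2rb2.

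The second quantification, which the authors made straight from the reads for each transcript, kept Csf1r first and Csf2rb2 last and changed the middle of the order. There Csf1r had 132 TPM in replicate 1 and, in replicate 2, 189 TPM, and Csf2rb followed at 43.4 and 65.4 TPM. Csf3r had 46.2 and 44.98 TPM, Csf2ra 31.6 and 43.4 TPM, and Csf2rb2 16.1 and 21.1 TPM. Csf2rb was not apart from Csf3r, nor Csf3r from Csf2ra, so the place of Csf2rb among the receptors depends on the quantification. The levels of the 2 quantifications are on different scales, because protein-coding genes held 27.5% and 29.6% of all TPM in the gene tables but 14.97% and 21.2% in the second quantification. Rescaled to the same total over protein-coding genes alone, Csf1r had 933 and 863 TPM in the gene tables and 881 and 893 TPM in the second quantification.

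**Figure D1:**
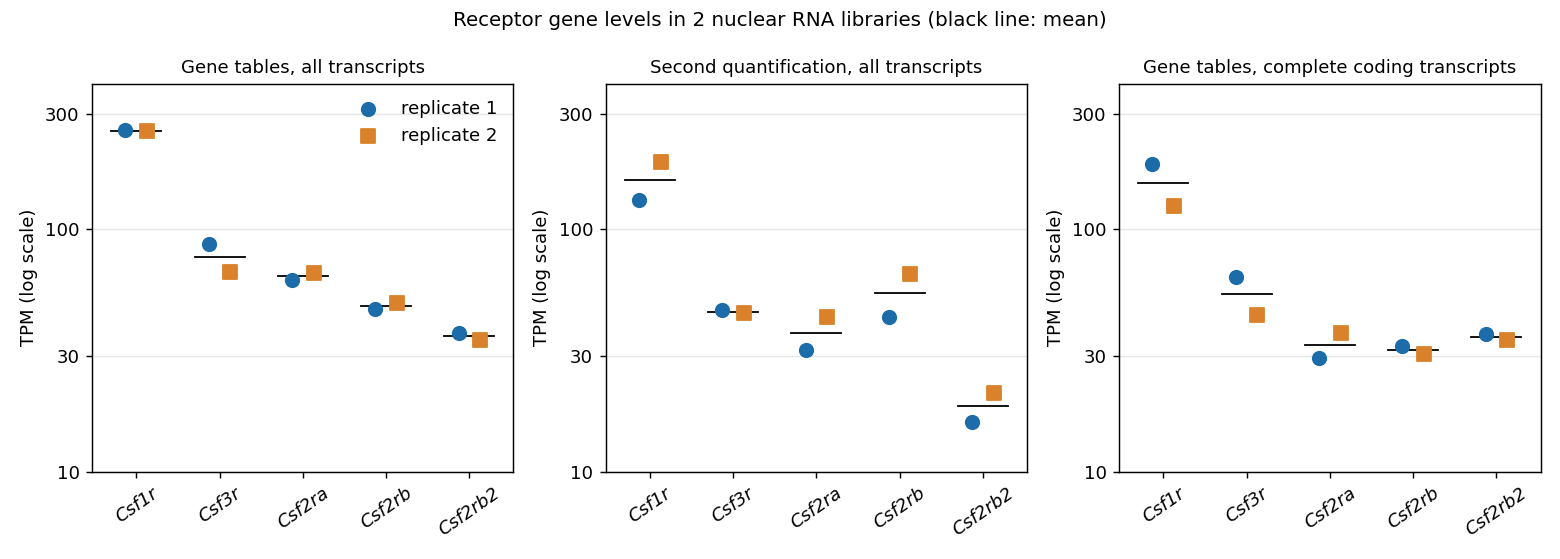
Level of each receptor gene in TPM, on a log axis, in replicate 1 (circles) and replicate 2 (squares), with the mean as a line, for the gene tables, the second quantification, and the complete coding transcripts of the gene tables. Csf1r is highest in all panels, and Csf2rb2 at 36.2 TPM is the lowest mean in the left panel but not in the right, where Csf2rb has 31.8 TPM.

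In the gene tables the Csf1r replicates differed more in reads than in TPM. A log2 ratio of replicate 1 over replicate 2 was taken from expected counts after TMM scaling, with a 95% counting interval that covers sampling of reads only. It was 0.46 for Csf1r (0.43 to 0.49) and 0.46 for Csf3r (0.40 to 0.52), both higher in replicate 1. It was 0.08 for Csf2rb2 (0.02 to 0.14), -0.00 for Csf2rb (-0.06 to 0.06) and -0.17 for Csf2ra (-0.26 to -0.08). None of the 5 reached an absolute log2 ratio of 1, the mark that 2.00% of 10198 genes reached whose counts averaged 100 or more. Over these genes the ratio had an SD of 0.43, and its absolute value was smaller than that of Csf1r for 83.1% of them. The Csf1r and Csf3r ratios were thus larger than those of most genes and just beyond 1 SD, and the other 3 receptors lay within 1 SD.

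In TPM the log2 ratio of Csf1r was 0.01, 0.45 below its count ratio, a gap larger than in 97.5% of genes. In the second quantification the count ratio of Csf1r was 0.44 and its TPM ratio -0.52, so the direction differed between reads and TPM. There the TPM ratio lay below the count ratio for the other receptors too. It was -0.59 against 0.03 for Csf2rb, -0.39 against 0.07 for Csf2rb2, -0.45 against -0.17 for Csf2ra and 0.04 against 0.58 for Csf3r. The shift in that quantification was thus not particular to Csf1r, which had 881 and 893 TPM when rescaled over protein-coding genes alone. The effective length of Csf1r in the gene tables was 2896 bases in replicate 1 and 2104 bases in replicate 2. This length is a mean over the transcripts, weighted by their estimated TPM, and so reflects the division of reads described below. For the other receptors the TPM and count ratios in the gene tables differed by at most 0.08. The near-equal Csf1r levels of 256.5 and 255.0 TPM therefore came from unlike read counts and an unlike division of the reads among transcripts of different length.

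**Figure D2:**
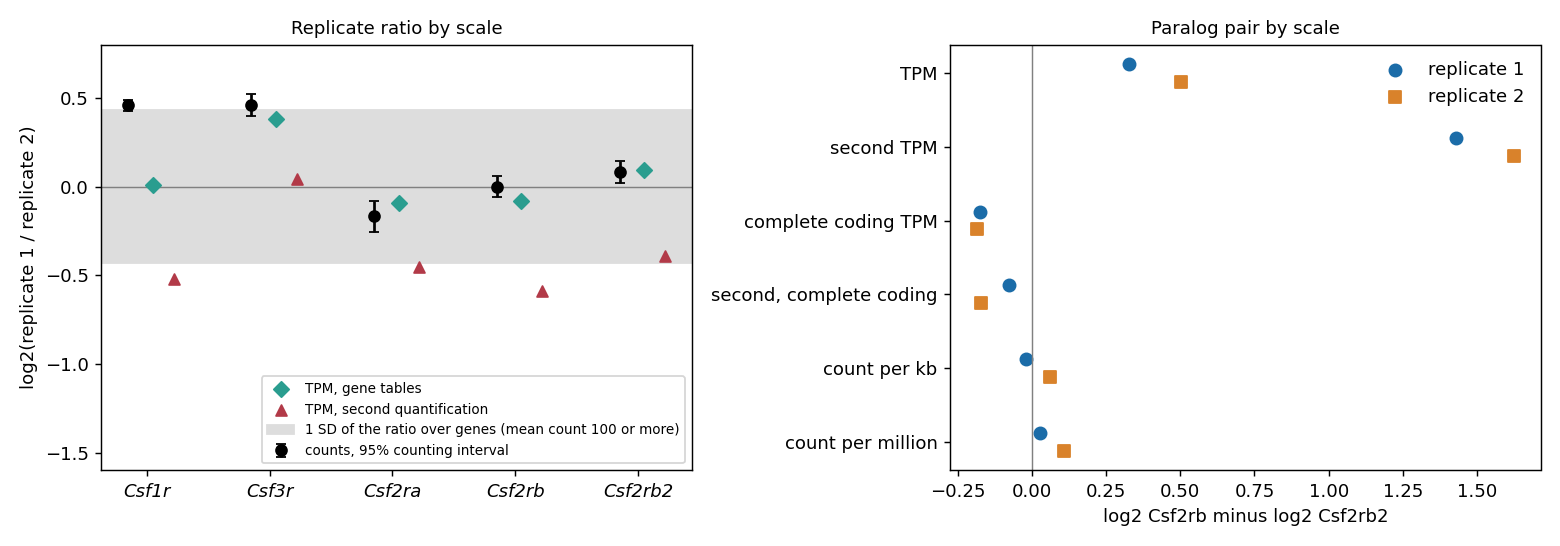
The left panel plots the log2 ratio of replicate 1 over replicate 2 for each receptor by counts (with 95% counting intervals) and by TPM in both quantifications, over a band of 1 SD of the ratio across genes, and the right panel the log2 difference of Csf2rb minus Csf2rb2 in each replicate on 6 scales. Csf1r lies at 0.46 by counts and 0.01 by TPM, and the beta-chain difference ranges from -0.19 to 1.62.

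The gap in the gene tables went with the division of the reads among the Csf1r transcripts. Csf1r-201, a complete coding transcript of 3870 bases, held 14270 counts in replicate 1 and 6357 counts in replicate 2, or 135 and 71.0 TPM. Csf1r-202, the other complete coding transcript, is 4701 bases long and held 6661 and 5996 counts, or 51.4 and 54.5 TPM. Csf1r-205 is a coding fragment of 416 bases at the 5′ end of the gene, annotated with no end found, and 414 of its bases lie within exons of Csf1r-201. It held 341 and 621 counts, 1.58% and 4.72% of the reads of the gene, and these became 64.0 and 125 TPM, or 25.0% and 49.2% of its level.

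Without incomplete transcripts, the complete coding transcripts of Csf1r summed to 187 TPM in replicate 1 and to 125 TPM in replicate 2. Csf1r stayed the highest of the 5 on that scale, and the replicate difference was in the same direction as that of the counts. Incomplete coding transcripts held at least 20% of the gene's TPM in both libraries in 4.87% of 9791 protein-coding genes at 1 TPM or more, and in 1 of the 5 receptors, Csf1r. In the second quantification Csf1r-205 had the highest mean of the Csf1r transcripts, with 51.6 and 111 TPM, against 66.6 and 59.8 TPM for Csf1r-201, which was the higher in replicate 1. The leading transcript by the sum over both libraries differed between the quantifications for 1 of the 5 receptors, against 36.3% of 9070 protein-coding genes with several transcripts.

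**Figure D3:**
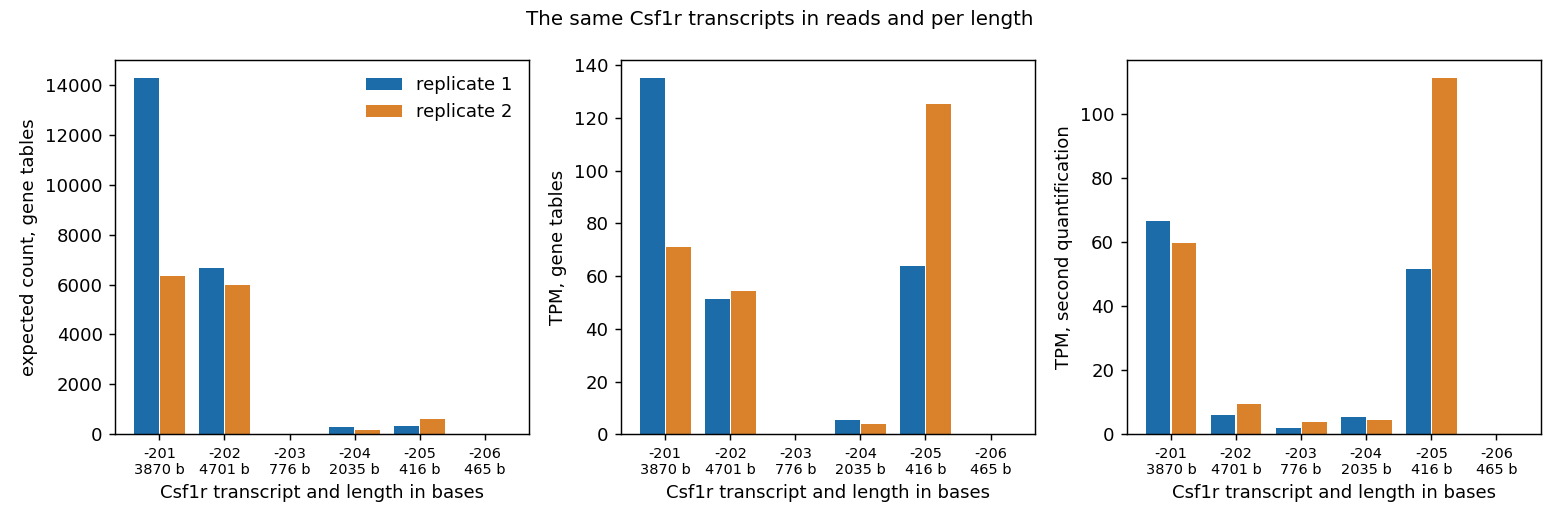
The 6 annotated Csf1r transcripts with their lengths, in expected counts and in TPM of the gene tables' transcript data and as TPM in the second quantification; bars give replicate 1 and replicate 2. Csf1r-205 is small in counts (341 and 621) and large in TPM (64.0 and 125).

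The remaining Csf1r transcripts were minor. The retained-intron transcript Csf1r-204 had 5.55 and 3.93 TPM. Csf1r-203, another incomplete coding fragment, had 0.32 TPM in replicate 1 and none in replicate 2, but 2.13 and 3.996 TPM in the second quantification. Csf1r-206, the transcript that starts farthest upstream, had 0 counts in replicate 1 and 1 count in replicate 2, so nearly all Csf1r reads were assigned to transcripts that start downstream of it. Of the 1015 bases of Csf1r-202 that lie outside Csf1r-201, 873 overlap Hmgxb3 on the opposite strand. Hmgxb3 had 10.9 and 10.5 TPM, and strand use in counting is not given in the sources used here, so the division between Csf1r-201 and Csf1r-202 is uncertain. The second quantification put 5.99 and 9.58 TPM on Csf1r-202.

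Complete coding transcripts held 47.5% of the Csf2ra level in replicate 1 and 56.3% in replicate 2. Csf2ra-201 led with 29.0 and 37.2 TPM, and the other complete coding transcript, Csf2ra-207, had 0.37 TPM and none. Retained-intron transcripts, which keep sequence that splicing normally removes, held 32.9% and 34.2% of the Csf2ra level. They were Csf2ra-202, with 10.4 and 7.18 TPM, Csf2ra-205, with 6.13 and 14.8 TPM, and the minor Csf2ra-206 and Csf2ra-208, with 1.95 TPM or less each. Csf2ra-204, a processed transcript of 330 bases, had 12.2 and 6.33 TPM from 37 and 18 counts. Csf2ra-203 had no count, and 1.37 and 0 TPM in the second quantification. The order of Csf2ra-202 and Csf2ra-205 was opposite in the 2 libraries.

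Csf2rb kept 28.1% and 31.3% of its level in retained-intron transcripts. These were Csf2rb-205, with 9.17 and 12.9 TPM, and Csf2rb-207, with 4.0 and 2.65 TPM, both within the 5′ part of the gene. The complete coding transcript Csf2rb-201 had 32.9 and 30.5 TPM, and the incomplete Csf2rb-208 had 0.80 and 3.51 TPM. The second quantification spread the Csf2rb level over more transcripts. It gave Csf2rb-201 13.1 and 16.4 TPM, Csf2rb-208 1.59 and 11.3 TPM, and Csf2rb-203, which had no count in the gene tables' transcript data, 10.4 and 8.62 TPM from 97 and 70 estimated counts. It gave Csf2rb-204 1.89 and 2.06 TPM.

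In the gene tables' transcript data Csf2rb2 was almost entirely 1 transcript. Its complete coding transcript ENSMUST00000096356.4 had 36.9 and 34.1 TPM, 98.7% and 97.1% of the gene, and the shorter ENSMUST00000230115.2 had 0.30 and 0.78 TPM. The second quantification gave the first 86.8% and 82.1% of the gene and the shorter one 1.83 and 3.59 TPM, or 11.4% and 17.0%. The other 2 annotated transcripts of Csf2rb2 had 0.22 TPM or less in both quantifications. The annotation has no retained-intron transcript for Csf2rb2 or Csf3r, so the classes of the receptor genes differ in what the annotation allows. Of the 3 receptors that have one, Csf2ra and Csf2rb held at least 20% of their TPM in it in both libraries and Csf1r held 2.16% and 1.54%. Over 6143 protein-coding genes with such a transcript, 61.9% reached 20% in both libraries, and the median shares were 29.2% and 30.7%. Csf2ra and Csf2rb were thus close to the median of this nuclear RNA and Csf1r was below it.

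**Figure D4:**
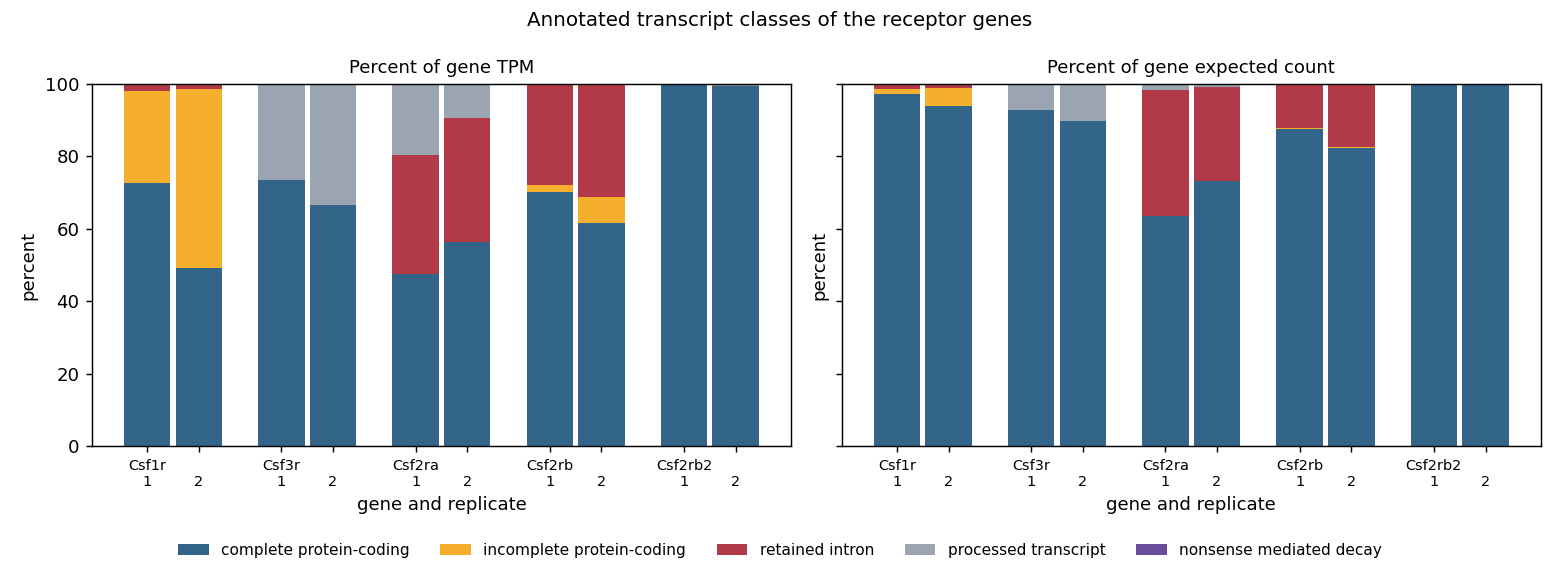
Share of each receptor gene's TPM (left) and expected count (right) by annotated transcript class, in percent, for replicate 1 and replicate 2 of each gene. Retained-intron transcripts are visible in Csf2ra (32.9% and 34.2% of TPM) and Csf2rb (28.1% and 31.3%), and the incomplete share of Csf1r is large in TPM (25.1% and 49.2%) and small in counts (1.61% and 4.72%).

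The gap between Csf2rb and Csf2rb2 depended on these transcript classes. By gene TPM, Csf2rb was above Csf2rb2 by 0.33 in replicate 1 and 0.50 in replicate 2 on the log2 scale, and in the second quantification by 1.43 and 1.62. By complete coding transcripts alone, Csf2rb was below Csf2rb2, with log2 differences of -0.17 and -0.19 in the gene tables' data and -0.08 and -0.17 in the second quantification. By counts per kilobase of the longest coding transcript the differences were -0.02 and 0.06, and by counts scaled to the library (CPM) 0.03 and 0.11. The summed level of the pair was 84.2 and 84.8 TPM in the gene tables. It was 59.5 and 86.5 TPM in the second quantification, and 70.1 and 65.5 TPM by complete coding transcripts of the gene tables' data. The direction of the difference between the beta chains was therefore not settled by these data, although both beta chains were present on every scale.

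Csf3r has 2 complete coding transcripts that start at different places, Csf3r-202 at position 126024550 and Csf3r-201 at position 126027292. Csf3r-201 had 57.6 and 40.1 TPM and Csf3r-202 6.21 and 4.2 TPM in the gene tables' transcript data. In the second quantification they were nearly equal, at 15.6 and 15.4 TPM for Csf3r-201 and 16.7 and 13.4 TPM for Csf3r-202. The transcripts share most of their sequence: 25 bases of Csf3r-201 lie outside Csf3r-202, and 346 bases of Csf3r-202 outside Csf3r-201. The processed transcript Csf3r-203 had 18.8 and 19.2 TPM in the gene tables' data, against 0 and 4.68 TPM in the second quantification. Csf3r-204 had 4.13 and 3.08 TPM, against 13.9 and 11.4 TPM. The start used by Csf3r thus could not be read from these tables.

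The neighbours of the receptor genes were not alike in level. Pdgfrb, a related receptor tyrosine kinase that lies 15536 bases from Csf1r, had 0.06 and 0.12 TPM from 9 and 15 counts, while Slc26a2, a sulfate transporter gene on the other side, had 11.1 and 11.4 TPM. Ncf4, which encodes the p40phox subunit of the phagocyte NADPH oxidase and lies 19926 bases from Csf2rb2, had 57.3 and 72.6 TPM, above both beta chains in both libraries of the gene tables but at 42.5 and 64.0 TPM just below Csf2rb in the second quantification. Tex33, on the other side of Csf2rb, had no count. Mrps15, a mitochondrial ribosomal protein gene 2484 bases from Csf3r, had 7.93 and 9.20 TPM, and Grik3, on the other side, had no count. Mir6983, a 64-base entry within Csf1r, had no count, and the second quantification listed it at 0 and 1.34 TPM. The nearest protein-coding entries to Csf2ra, Gm6020 and Gm21060, also had no count, and the second quantification listed Gm21060 at 1.19 and 6.29 TPM. These entries and Mir6983 are short, like the hairpins above, so their lack of counts says little.

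Of the 6 ligand genes, only Csf1 was at 1 TPM or more, with 17.7 and 35.6 TPM. Csf1, the ligand of CSF1R, came from 1653 and 2934 counts, a log2 ratio of -1.08, and so was past the mark of 1 between the replicates. The direction was opposite to that of Csf1r counts. Il34, the other CSF1R ligand, had 0 and 1 count. Csf3 had 1 count in each library, and Il5 had 2 counts in replicate 1 and 1 count in replicate 2. No read was counted for Csf2, which encodes GM-CSF, or for Il3. For counting error only, this leaves room for 0.183 and 0.209 TPM of Csf2 and for 0.262 and 0.296 TPM of Il3.

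Of 6 related receptor chains, Il3ra, the IL-3 receptor alpha chain, was the only one at 1 TPM or more in both libraries, at 18.5 and 10.8 TPM. Il5ra, the IL-5 receptor alpha chain, was not counted in either library, which leaves room for 0.0453 and 0.0532 TPM, and the second quantification listed it at 0.190 and 0.438 TPM. Kit had 0.48 and 1.13 TPM, Flt3 0.08 and 0.19 TPM, and Pdgfra 0 and 2 counts. Among the alpha chains that pair with the common beta chain, Csf2ra at 61.95 and 66.15 TPM was thus above Il3ra, and Il3ra above Il5ra, in both libraries.

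Genes of signalling, feedback, transcription and receptor cleavage were mostly present. Of 17 proximal signalling genes, 16 were at 1 TPM or more in both libraries. By mean TPM the highest were Tyrobp, which encodes the adaptor DAP12, at 150 and 74.3 TPM, the SRC-family kinase Lyn at 124 and 85.7 TPM, and the adaptor Grb2 at 68.0 and 48.6 TPM. Lyn was above Tyrobp in replicate 2, and in the second quantification Cbl, a ubiquitin ligase that acts on CSF1R, was above both at 70.9 and 61.97 TPM. The lowest was Fgr, another SRC-family kinase, at 0.67 and 1.11 TPM. Of 9 feedback genes and phosphatases, 7 were at 1 TPM or more in both. In the gene tables the phosphatases Inpp5d (SHIP1), at 98.9 and 66.4 TPM, and Ptpn6 (SHP-1), at 83.2 and 63.8 TPM, were the highest, ahead of the adaptor Dok1 at 26.2 and 16.3 TPM. Cish, a STAT5 target that restrains cytokine receptor signalling, was lowest at 0.23 and 0.79 TPM from 25 and 79 counts.

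Of 10 transcription factors known to act on the receptor genes, 7 were at 1 TPM or more in both libraries. Spi1 (PU.1), a regulator of Csf1r and other myeloid receptor genes, had 50.2 and 43.5 TPM, Irf8 54.0 and 33.1 TPM, and Runx1 34.3 and 30.1 TPM. Myb, a factor of early blood progenitors, had the lowest mean, with 0.57 and 0.58 TPM. All 7 genes of CSF1R shedding and cleavage were at 10 TPM or more in both. Ncstn, a subunit of gamma-secretase, had 60.1 and 56.9 TPM, Adam17, the protease that sheds the CSF1R ectodomain, 50.3 and 42.7 TPM, and Psenen, another gamma-secretase subunit, 48.9 and 35.7 TPM. Aph1a, also of gamma-secretase, was lowest at 17.3 and 13.9 TPM.

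Over the 6 lists, 39 of 55 genes were at 1 TPM or more in both libraries and 30 at 10 TPM or more, beside 44.4% and 19.7% of all protein-coding genes. Of the 39 whose counts averaged 100 or more, 3 were past an absolute log2 ratio of 1 between the replicates, beside 2.00% of all such genes: Csf1 at -1.08, Socs1 at 1.39 and Socs3 at 1.00. Socs1 and Socs3, which encode inhibitors of JAK signalling, had 8.30 and 3.12 TPM and 9.39 and 4.61 TPM. None of the receptors was past that mark.

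**Figure D5:**
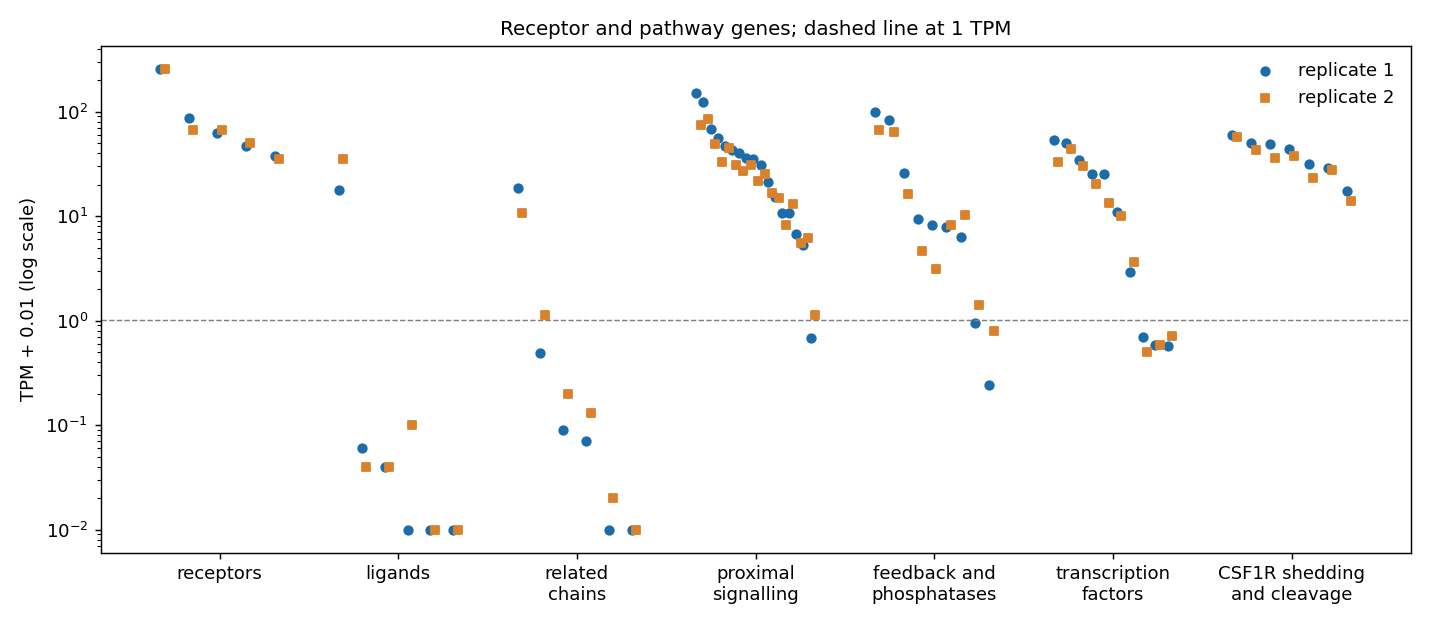
Level of each receptor and pathway gene as TPM plus 0.01 on a log axis, grouped by role and sorted within each group, in replicate 1 (circles) and replicate 2 (squares); the dashed line marks 1 TPM. The receptors lie between 35.1 and 257 TPM, while 5 of 6 ligands and 4 of 6 related chains lie below 1 TPM in both libraries.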

How the data were processed

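Per the labels, the libraries are ribosomal-RNA-depleted total RNA of the nucleoplasmic fraction, 2 biological replicates of 1 group, and the assembly is mm10. The deposited gene and transcript tables hold expected counts and TPM, estimated by the authors from alignments to the transcriptome with GENCODE mouse release 21, per the notes deposited beside the files. A further transcript table of the authors, made straight from the reads and named the second quantification, gives estimated counts and TPM. Which programs, versions and strand settings were used is not stated in these sources. The deposited tables also give an effective length, a posterior SD of the count and credibility intervals, used as descriptions. The authors' TPM values have the same sum over all entries in each library, so abundant noncoding RNAs lower those of every other gene.

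Expected counts were rounded and scaled with TMM in edgeR 4.0.16 (R 4.3.3) after filterByExpr, which kept 14892 genes; DESeq2 1.42.0 gave alternative size factors. Log2 replicate ratios used the TMM factors and a prior count of 0.5, and log2 TPM a pseudocount of 0.1. CPM (counts scaled to the library) used the library totals alone, and log2 CPM the same pseudocount of 0.1. Entries without an annotated gene, 1.01% and 0.336% of counts, were left out. Counting intervals are exact binomial at 95%, and a count of 0 was taken to allow 3 counts. Both cover counting error only, since reads carry no molecular identifiers. With 1 group and 2 samples no p-value was computed. The scaling was tested on simulated counts. Transcript ends and classes are those of GENCODE, and incomplete means that its annotation marks a start or an end as not found. Coding sequences were aligned globally with Biopython 1.88. Named genes were the 5 receptors, their transcripts at a mean of 0.1 TPM or more in either quantification, all ligands, the 3 highest and the lowest of each other list, overlapping and nearest genes, and the 2 genes closest in level; Pdgfra, Socs1 and Socs3 were also named after their values were seen, as were the markers. The members and lists were chosen with earlier results of these data known. Protein sequences were not used here.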

Additional observations from a re-analysis of the deposited data

How the results depend on the processing

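Over 29 results and 153 alternatives, 101 stayed close, 48 moved further and 4 changed sign. Close means within the replicate SD for levels and shares, within 1.5 times for counts of genes, and for replicate ratios the same sign and side of 1, which the Csf1r ratio kept although it was 0.008 by TPM and 0.46 by counts. The cause was not tested. With 2 libraries, the value of 1 library alone always lies within the replicate SD of their mean. For levels, percentiles, shares and the Csf2rb minus Csf2rb2 difference, the alternatives without 1 replicate were therefore close by construction. They are part of the 101 and say nothing about stability. No paired analysis was possible because all samples belong to 1 group. In the second quantification the mean levels in TPM were 160 for Csf1r, 37.5 for Csf2ra, 54.4 for Csf2rb, 18.6 for Csf2rb2 and 45.6 for Csf3r, and over protein-coding genes alone 887, 208, 299.6, 104 and 261. Over protein-coding genes alone, the gene tables gave 898, 225, 169, 127 and 270.4. Scales chosen after seeing the data were complete coding transcripts, with 156 for Csf1r, 33.3 for Csf2ra, 31.8 for Csf2rb and 54.0 for Csf3r, and counts per kilobase, with 713, 223, 181, 179 and 264 in the order above. Percentiles among genes at 1 TPM or more were 99.1, 94.1, 91.3, 87.1 and 95.3, and in the second quantification 96.7 for Csf2ra, 98.0 for Csf2rb, 91.7 for Csf2rb2 and 97.5 for Csf3r. The Csf2rb replicate ratio, -0.00, was 0.017 with DESeq2 size factors, 0.012 with TMM and no filter and 0.026 in the second quantification, all within its counting interval. Genes apart between replicates, 204, were 330 at a mean count of 50 and 500 in the second quantification. Csf2rb minus Csf2rb2, 0.42, was 1.53 in the second quantification, 0.069 by CPM, 0.021 per kilobase and -0.18 by complete coding transcripts. Retained-intron shares in the second quantification were 3.28% for Csf1r, 37.2% for Csf2ra and 39.6% for Csf2rb, and by counts 1.34%, 30.4% and 14.9%. Incomplete shares by counts were 3.16% for Csf1r and 0.159% for Csf2rb, and 10.4% for Csf2rb in the second quantification. Related chains at 1 TPM numbered between 1 and 2 with either replicate left out. The levels of replicate 1 and replicate 2 alone are those given per library. With 2 samples, the spread rests on a single difference.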
